A study of Mus musculus with 9 samples.

Results

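The genes described here are the mouse mitochondrial carriers (symbols Slc25a and a number) and the numbered Timm and Tomm genes, most of which encode parts of the mitochondrial protein import machinery. They were chosen by symbol alone, and 50 of the 14052 genes in the count table matched: 36 carriers and 14 import genes. RNA was sequenced from 5 tumor areas of kidney cortex (L4, R2, R3, R4 and R5) of animals carrying floxed Vhl and floxed Pbrm1 alleles with Ksp-Cre, on a mixed C57BL/6, BALB/c and 129 background, and from 4 areas of wild-type C57BL/6 kidney cortex (L1, L2, R1 and R2). All animals were about 1 year old and had a normal diet, and the comparison asked which transcripts differ in the tumors. The Ksp promoter belongs to Cdh16, which encodes a cadherin of the kidney's tubule epithelium, so recombination is driven in tubule cells and not in every cell of an area. The descriptions of all tumor areas share 1 number and those of all normal areas share another, so a group may stem from a single animal, in which case the p-values measure how areas of that animal vary. Strain, genotype and possibly the animal go together and cannot be told apart. The meaning of the letters L and R is not given.

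Mitochondria make most of their ATP from substrates that must cross an inner membrane with few openings, and the SLC25 carriers are the proteins that exchange nucleotides, phosphate, carboxylates, amino acids, acylcarnitine and cofactors across it. The carriers themselves, like nearly all mitochondrial proteins, are made in the cytosol and enter through the TOM complex of the outer membrane, from which presequence proteins pass to the TIM23 complex and carriers pass, with the help of small TIM chaperones, to the TIM22 complex. Kidney tubules, above all the proximal tubule, are rich in mitochondria. VHL marks the alpha subunits of the hypoxia-inducible factors (HIF) for destruction, and PBRM1 is a subunit of a SWI/SNF chromatin remodeling complex.

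Promoter windows of the genes were taken from RefSeq (GRCm38.p6, a later build than the mm9 named for the files, so no coordinate of the files was used), and 43 of the 50 genes had one. The 250 bases before the start site are printed for 4 genes that stand at the ends of the results below: the carrier and the import receptor that were lowest in tumor relative to normal areas (Slc25a30 and Tomm20), the carrier that was most raised (Slc25a1), and the import receptor that moved opposite to Tomm20 (Tomm22). Sequences run 5′ to 3′ on the gene's strand, and capitals mark motif matches on either strand. The first motif is the letters ACGTG, a form of the core of HIF sites, other forms of which were not searched. The second is the letters GCGC, any base, then TGCGC, which the nuclear respiratory factor NRF1 binds. The windows are Slc25a30 at chr14:75787038-75787287 (minus strand), Slc25a1 at chr16:17928220-17928469 (minus strand), Tomm20 at chr8:126945922-126946171 (minus strand) and Tomm22 at chr15:79670618-79670867 (plus strand).
Slc25a30: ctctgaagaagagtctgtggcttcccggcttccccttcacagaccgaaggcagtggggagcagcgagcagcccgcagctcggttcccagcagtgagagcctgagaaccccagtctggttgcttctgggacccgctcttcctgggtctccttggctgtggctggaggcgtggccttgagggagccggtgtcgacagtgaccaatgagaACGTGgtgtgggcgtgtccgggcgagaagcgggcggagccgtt
Slc25a1: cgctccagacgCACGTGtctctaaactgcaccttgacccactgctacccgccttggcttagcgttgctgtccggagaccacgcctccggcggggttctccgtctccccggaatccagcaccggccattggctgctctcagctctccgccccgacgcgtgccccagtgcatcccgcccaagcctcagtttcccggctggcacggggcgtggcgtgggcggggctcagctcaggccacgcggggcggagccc
Tomm20: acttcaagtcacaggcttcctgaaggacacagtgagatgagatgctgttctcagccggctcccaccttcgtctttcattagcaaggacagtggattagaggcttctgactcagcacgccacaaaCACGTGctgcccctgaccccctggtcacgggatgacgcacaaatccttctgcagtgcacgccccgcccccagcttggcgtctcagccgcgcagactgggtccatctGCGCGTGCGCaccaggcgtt
Tomm22: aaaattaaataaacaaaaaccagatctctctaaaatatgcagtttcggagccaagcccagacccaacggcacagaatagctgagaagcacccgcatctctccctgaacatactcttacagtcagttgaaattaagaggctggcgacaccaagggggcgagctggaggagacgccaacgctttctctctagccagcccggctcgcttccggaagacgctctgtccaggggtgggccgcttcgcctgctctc
In these stretches Slc25a1 and Tomm20 each held CACGTG, which reads as ACGTG on both strands, and Slc25a30 held ACGTG once. Tomm22 held neither motif, and Tomm20 alone held the NRF1 letters. Over the full windows (250 bases before to 50 after the start), ACGTG was present in 13 of the 43 genes (30.2%), against 21.8% of 27025 genes with a window. The NRF1 letters were present in 3 of the 43 (6.98%), against 5.19%. Among the genes that passed the test below, ACGTG was in 2 of 6 that were higher and 4 of 16 that were lower in tumor areas. The NRF1 letters were in 0 of 6 and 1 of 16. A match of letters is a description of the window and not a binding site.

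The libraries held 5143527 to 8250261 counted reads, so that 3 counts, the limit a count of 0 allows, come to 0.364 to 0.583 CPM (counts in every 1000000 counted reads) of the unscaled library, covering counting error only. Values below are CPM scaled by edgeR's TMM factors, and they are given for tumor areas L4, R2, R3, R4 and R5 and for normal areas L1, L2, R1 and R2, in that order. Each log2 fold change is tumor over normal with its standard error from edgeR's quasi-likelihood fit, with p adjusted by Benjamini-Hochberg over all 7020 genes that passed the filter on low counts. A gene called higher or lower has an adjusted p under 0.05. The floxed gene Vhl averaged 60.0 ± 11.95 CPM in tumor and 104 ± 4.69 CPM in normal areas (SD, n = 5 and n = 4; log2 fold change −0.79 ± 0.13, edgeR adjusted p = 0.000248), whereas Pbrm1 (−0.19 ± 0.11, adjusted p = 0.142) and Cdh16 (−0.23 ± 0.10, adjusted p = 0.0543) did not pass. Counts per gene do not show whether floxed exons were lost.

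Markers of the cells in the cortex differed between the groups. The proximal tubule markers, of which 13 of 14 were in the table and none was listed at 0, summed to 9885 to 19102 CPM in tumor areas and 34193 to 36397 CPM in normal areas, and 12 of 12 tested were lower. Those of the thick limb and distal tubule summed to 1499 to 6706 against 10256 to 10493 CPM (7 of 8 in the table, Cldn16 and Pvalb listed at 0, 4 of 5 tested lower), those of the collecting duct to 37.1 to 192 against 625 to 666 CPM (4 of 4 tested lower), and those of podocytes and endothelium to 924 to 1186 against 2047 to 2128 CPM (5 of 6 tested lower). Leukocyte markers summed to 772 to 1631 CPM in tumor and 80.6 to 87.4 CPM in normal areas (8 of 12 in the table, Ptprc listed at 0, 6 of 7 tested higher), and dividing cell markers to 54.1 to 85.4 against 4.33 to 6.07 CPM (3 of 3 tested higher). Urothelial markers summed to 16.7 to 1097 against 0.830 to 5.18 CPM (5 of 5 tested higher) and fat markers to 43.8 to 2113 against 47.8 to 109 CPM (2 of 4 tested higher). Both were highest in tumor area L4, followed by R5. In bulk tissue, fewer cells of a type and less RNA per cell cannot be told apart, and the part of cell makeup in the results below was not tested.

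Mitochondrial carrier transcripts were, for the most part, lower in the tumor areas, whereas the import genes were divided into equal groups that moved in opposite directions. Of the 50 genes, 33 passed the filter on low counts, and 26 of these were called: 8 were higher (24.2%) and 18 were lower (54.5%) in tumor areas. Over all genes tested, 74.6% were called, 39.3% higher and 35.3% lower, so the called share of the set (78.8%) lies near that background, with fewer genes higher and more lower. The median log2 fold change was −0.37 over the 33 genes and 0.06 over all genes tested. Tumor and normal areas did not overlap for 23 of the 33, of which 6 had every tumor area above and 17 every tumor area below the normal areas, beside 67.8% of all genes tested.

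The change in level was larger among the genes that were lower. No carrier or import gene was called and at least 2-fold higher (17.3% of all genes were), and 7 were called and at least 2-fold lower (12.6% of all genes were): Slc25a30, Slc25a15, Slc25a32, Slc25a48, Slc25a35, Tomm20 and Slc25a39. By family, 4 of 25 tested carriers were higher and 14 lower, with a median log2 fold change of −0.37, and 4 of 8 tested import genes were higher and 4 lower, with a median of 0.01. All 8 import genes were called, beside 74.6% of all genes tested, and their groups did not overlap, beside 67.8%. All genes tested were also divided between higher (39.3%) and lower (35.3%), with a median log2 fold change of 0.06. The 4 higher carriers became 2 without tumor area R4 or normal area L1, L2 or R2, 1 without normal area R1 and 6 without tumor area L4. With library size alone as scaling, which shifts the median of all genes by 0.29, 7 carriers were higher and 11 lower, and 68.9% of all calls were higher, against 52.7% with TMM. Together the 50 genes took 0.454% to 0.554% of the counted reads in tumor areas and 0.620% to 0.637% in normal areas.

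**Figure D1:**
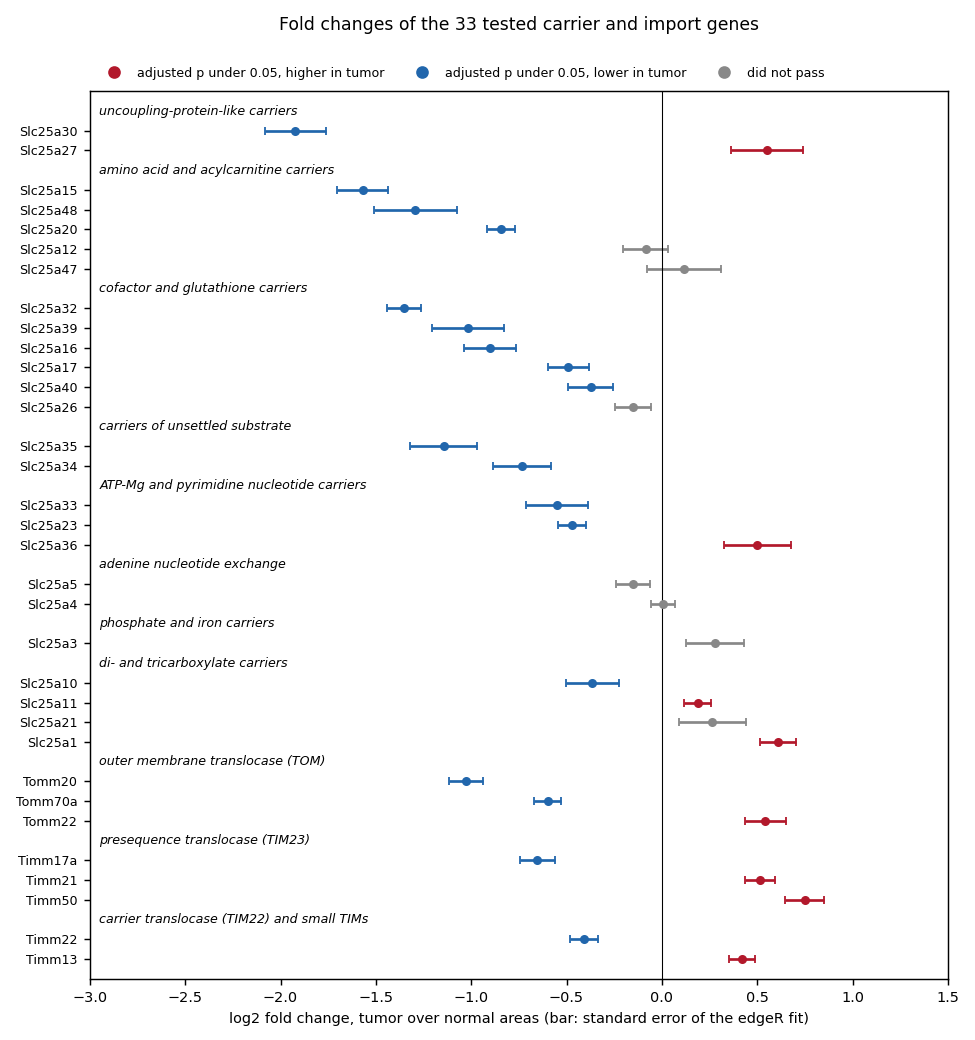
Log2 fold change, tumor over normal areas, of the 33 tested genes by role, with the standard error of the edgeR fit as bars; red genes were higher and blue genes lower at an adjusted p under 0.05, and grey genes did not pass. The carriers extend to −1.92 on the lower side and to 0.61 on the higher side, and each import complex holds genes of both colors.

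Among the carriers related to uncoupling proteins, Slc25a30 and Slc25a27 changed in opposite directions. Slc25a30 (ENSMUSG00000022003, chromosome 14), first described as kidney mitochondrial carrier protein 1, had 53.5, 63.4, 75.3, 103 and 60.3 CPM in tumor areas, against 274, 269.9, 260.4 and 273 CPM in normal areas. The highest tumor area, R4, lay far below the lowest normal area, and the log2 fold change was −1.92 ± 0.16 (edgeR adjusted p = 2.14e-06). Its promoter stretch is the first of the 4 above. Slc25a27 (ENSMUSG00000023912, chromosome 17), known as UCP4 and described mainly in brain, was a low transcript with 7.93, 5.37, 5.99, 5.37 and 7.76 CPM in tumor areas, against 4.33, 5.05, 3.49 and 4.86 CPM in normal areas. Every tumor area was above every normal area, by a small margin in R2 and R4, and the log2 fold change was 0.55 ± 0.19 (edgeR adjusted p = 0.0223). The Slc25a27 call was lost in 4 of 19 alternative analyses, among them the ones without normal area L1 (0.53, edgeR adjusted p = 0.0523), without normal area R1 (0.44, adjusted p = 0.0743) and without tumor areas L4 and R5 (0.34, adjusted p = 0.122). Slc25a14, the third of the kind, was listed at 0 in all libraries. Ucp2, an uncoupling protein that belongs to the SLC25 family under another symbol, had 453, 336, 354, 311 and 419.9 CPM in tumor areas, against 92.8, 106, 108 and 108 CPM in normal areas. It was the 1 tested gene of the 4 SLC25 proteins listed under other symbols, and rose by a log2 fold change of 1.85 ± 0.12 (edgeR adjusted p = 3.98e-07). Ucp1, the uncoupling protein of brown fat, was not tested and had 34.1, 0, 0.182, 0.436 and 40.0 CPM in tumor areas, against 0, 0.273, 0.166 and 0 CPM in normal areas. It was thus high in L4 and R5 alone, where fat markers summed to 2113 and 528 CPM, and was named after its values were seen.

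The carriers grouped here as those of amino acids and acylcarnitine included 3 called genes, all lower. For Slc25a48, which is among them, this grouping does not settle the substrate. Slc25a15 (ENSMUSG00000031482, chromosome 8), the ornithine carrier that serves the urea cycle in liver and arginine metabolism elsewhere, had 320.4, 419.7, 506, 561 and 439.8 CPM in tumor areas, against 1294, 1317, 1351 and 1375 CPM in normal areas. The groups were far apart, with a log2 fold change of −1.57 ± 0.14 (edgeR adjusted p = 2.84e-06). Slc25a20 (ENSMUSG00000032602, chromosome 9), which brings acylcarnitines to fatty acid oxidation, had 127, 129, 153, 157 and 148 CPM in tumor areas, against 246, 265, 269.6 and 247 CPM in normal areas. The tumor areas did not reach the normal range, and the log2 fold change was −0.84 ± 0.07 (edgeR adjusted p = 3.01e-06).

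Slc25a12 (ENSMUSG00000027010, chromosome 2), the aspartate-glutamate carrier of the malate-aspartate shuttle, had 37.6, 52.4, 59.2, 55.9 and 49.5 CPM in tumor areas, against 50.8, 53.6, 57.8 and 53.4 CPM in normal areas. Its groups overlapped, L4 was its lowest area, and it did not pass (−0.09 ± 0.12, edgeR adjusted p = 0.53). The direction turned without tumor area L4 (0.02) and under library size scaling (0.20). Its paralog Slc25a13 was not analysed here. Slc25a48 was lower at 1.22 to 1.997 CPM in tumor areas and 3.03 to 4.86 CPM in normal areas (−1.29 ± 0.22, edgeR adjusted p = 0.000324), and Slc25a47 did not pass (0.12 ± 0.19, adjusted p = 0.673). Slc25a44, a carrier of branched-chain amino acids, had too few counts for the filter, with 0 to 3 counts per tumor area and 8 to 20 per normal area. Summed, these were 11 counts in tumor and 64 in normal areas, a ratio of normal over tumor rates of 8.15 (interval 4.27 to 17.1, counting error only), and when genes with 1 CPM or more in 4 libraries were kept, its log2 fold change, tumor over normal, was −2.96 ± 0.42 (edgeR adjusted p = 0.000103). It was singled out after its values were seen.

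**Figure D2:**
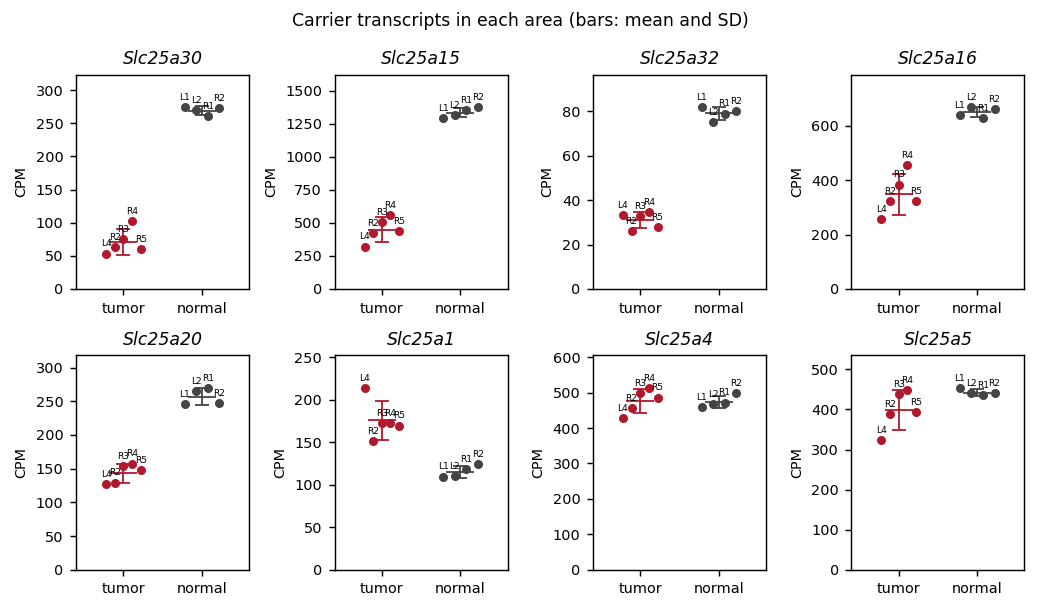
CPM of 8 carrier transcripts in each area, with group mean and SD as bars; every axis starts at 0. Slc25a30, Slc25a15, Slc25a32, Slc25a16 and Slc25a20 are lower in every tumor area, Slc25a1 is higher in every tumor area, and Slc25a4 and Slc25a5 overlap between the groups.

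Carriers of cofactors and glutathione were also lower where they were called, 5 of 6 tested. Slc25a32 (ENSMUSG00000022299, chromosome 15), a transporter of folate and FAD, had 33.4, 26.2, 32.7, 34.6 and 27.8 CPM in tumor areas, against 81.8, 75.1, 78.9 and 80.2 CPM in normal areas. Both groups were tight and far apart, with a log2 fold change of −1.35 ± 0.09 (edgeR adjusted p = 5.37e-07). Slc25a16 (ENSMUSG00000071253, chromosome 10), linked to coenzyme A transport, had 256, 324, 384, 455 and 322 CPM in tumor areas, against 640.2, 668, 628 and 661 CPM in normal areas. The tumor areas spread widely, with R4 highest and L4 lowest, yet all lay below the normal areas (−0.90 ± 0.14, edgeR adjusted p = 0.000151). Slc25a17, a carrier of the same family that resides in the peroxisome, ranged from 184 to 259 CPM in tumor and from 292 to 331 CPM in normal areas (−0.49 ± 0.11, edgeR adjusted p = 0.00185). The S-adenosylmethionine carrier Slc25a26 did not pass (−0.15 ± 0.09, adjusted p = 0.162). It passed without tumor area R3 (−0.21, adjusted p = 0.0483) and had the other sign under library size scaling (0.14).

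The glutathione carriers Slc25a39 and Slc25a40 are paralogs, and both were lower. Slc25a39 (ENSMUSG00000018677, chromosome 11) had 4.59, 6.88, 8.35, 7.12 and 5.17 CPM in tumor areas, against 11.7, 13.8, 11.1 and 15.2 CPM in normal areas. The groups did not overlap (−1.02 ± 0.19, edgeR adjusted p = 0.000584). Slc25a40 (ENSMUSG00000054099, chromosome 5) had 32.0, 36.9, 37.2, 45.2 and 30.0 CPM in tumor areas, against 51.1, 45.3, 49.2 and 42.5 CPM in normal areas. Tumor area R4 reached the normal range, and the log2 fold change was −0.37 ± 0.12 (edgeR adjusted p = 0.0155). The Slc25a40 call was lost under library size scaling (−0.09, adjusted p = 0.461), in R areas alone (−0.30, adjusted p = 0.128) and without tumor areas L4 and R5 (−0.22, adjusted p = 0.062). A processed pseudogene, Gm5066, matches Slc25a40 at 95% identity or more over at least 200 bases, so reads could be divided between them.

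Of the 4 carriers with no settled substrate, 2 were tested and both were lower. Slc25a35 (ENSMUSG00000018740, chromosome 11) had 7.80, 8.56, 6.72, 8.13 and 13.1 CPM in tumor areas, against 19.0, 21.1, 17.9 and 20.4 CPM in normal areas. R5 stood above the other tumor areas without reaching the normal range, and the log2 fold change was −1.15 ± 0.18 (edgeR adjusted p = 0.000171). Its transcript overlaps Rangrf on the other strand, and the library kit does not mark strand. Slc25a34 (ENSMUSG00000040740, chromosome 4) had 76.4, 123, 133, 133 and 89.9 CPM in tumor areas, against 173, 185, 190.2 and 188 CPM in normal areas. L4 and R5 were the lowest tumor areas (−0.73 ± 0.15, edgeR adjusted p = 0.00139).

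Nucleotide carriers did not move as 1 group. The ATP/ADP exchangers Slc25a4 and Slc25a5, through which ATP leaves the matrix, did not pass. Slc25a4 (ENSMUSG00000031633, chromosome 8), the form known from heart and muscle, had 427, 456, 499, 513 and 486 CPM in tumor areas, against 459, 468, 472 and 498 CPM in normal areas. The ranges overlapped fully, with a log2 fold change of 0.01 ± 0.06 (edgeR adjusted p = 0.942). Slc25a5 (ENSMUSG00000016319, X chromosome) had 323, 388, 438, 449 and 394 CPM in tumor areas, against 453, 440.0, 436 and 439.9 CPM in normal areas. R3 and R4 lay in the normal range and L4 was lowest (−0.15 ± 0.09, edgeR adjusted p = 0.144). The signs depend on scaling: with library size alone Slc25a4 was called higher (0.29, adjusted p = 0.00019) and Slc25a5 had a value of 0.13. Reads of Slc25a5 could be divided with 2 processed pseudogenes of at least 95% identity.

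The pyrimidine nucleotide carriers Slc25a33 and Slc25a36 changed in opposite directions. Slc25a33 (ENSMUSG00000028982, chromosome 4) had 17.0, 9.73, 16.9, 16.8 and 19.0 CPM in tumor areas, against 23.4, 23.9, 22.8 and 23.3 CPM in normal areas. R2 stood below the other tumor areas, and all lay below the normal areas (−0.55 ± 0.16, edgeR adjusted p = 0.0109). Slc25a36 (ENSMUSG00000032449, chromosome 9) had 18.4, 32.7, 24.5, 27.4 and 18.7 CPM in tumor areas, against 19.0, 16.4, 16.4 and 17.0 CPM in normal areas. L4 and R5 fell within the normal range while R2, R3 and R4 exceeded it (0.50 ± 0.18, edgeR adjusted p = 0.024). The Slc25a33 call was lost in R areas alone (−0.56, adjusted p = 0.0717) and under library size scaling (−0.26, adjusted p = 0.174). The Slc25a36 call was lost without tumor area R4 (0.45, adjusted p = 0.0509), without normal area L2, R1 or R2 (0.47 to 0.49, adjusted p = 0.0552 to 0.0638) and with the area letter as a covariate. An unprocessed pseudogene, Gm13217, is nearly identical to part of Slc25a36, and Gm13068 overlaps Slc25a33 on the other strand.

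Slc25a23 (ENSMUSG00000046329, chromosome 17), a calcium-regulated carrier of ATP-Mg and phosphate, had 277, 304, 356, 347 and 314 CPM in tumor areas, against 443, 434, 447 and 449.8 CPM in normal areas. All tumor areas were lower, with a log2 fold change of −0.47 ± 0.07 (edgeR adjusted p = 0.000174). Its relative Slc25a25 had 0 counts in tumor and 2 in normal areas, and Slc25a24 was not analysed here. Slc25a3, the phosphate carrier, had 11.4 to 15.98 CPM in tumor and 9.63 to 14.0 CPM in normal areas and did not pass (0.28 ± 0.15, edgeR adjusted p = 0.118). It passed in 4 of 19 alternatives: without tumor area L4 (0.36, edgeR adjusted p = 0.0427), without L4 and R5 (0.43, adjusted p = 0.0178), in R areas alone (0.52, adjusted p = 0.0287) and under library size scaling (0.56, adjusted p = 0.00382).

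Carboxylate carriers, which link the citric acid cycle to the cytosol, held 2 of the 4 carriers that were higher. Slc25a1 (ENSMUSG00000003528, chromosome 16), the citrate carrier that feeds lipid synthesis, had 214, 152, 173, 172 and 169.7 CPM in tumor areas, against 109.7, 109.9, 118 and 125 CPM in normal areas. Every tumor area was above the normal areas and L4 was the highest (0.61 ± 0.09, edgeR adjusted p = 0.000152). Fat markers summed to 2113 CPM in L4 and to 43.8 to 528 CPM in the other tumor areas. Without L4 the log2 fold change of Slc25a1 was 0.54 (edgeR adjusted p = 1.82e-05), and R5, with fat markers at 528 CPM, was still included. The part of fat or other cell makeup in the change of Slc25a1 was not tested. Slc25a11 (ENSMUSG00000014606, chromosome 11), the oxoglutarate-malate carrier of the malate-aspartate shuttle, had 229, 263, 284, 292 and 284 CPM in tumor areas, against 230.4, 235, 239 and 246 CPM in normal areas. L4 lay just under the lowest normal area and the other tumor areas were above all normal areas (0.19 ± 0.07, edgeR adjusted p = 0.036). Slc25a10 (ENSMUSG00000025792, chromosome 11), the dicarboxylate carrier that exchanges malate or succinate for phosphate, had 378, 423, 579, 633 and 558 CPM in tumor areas, against 658, 636, 680.3 and 675 CPM in normal areas. All tumor areas were lower, R4 only slightly (−0.36 ± 0.14, edgeR adjusted p = 0.0343).

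These 2 smaller changes were not called throughout. The call of Slc25a11 was lost in 11 of 19 alternatives, including the omission of any 1 normal area (0.17 to 0.20, edgeR adjusted p = 0.0571 to 0.0995) and of tumor area R3, R4 or R5 (0.16 to 0.18, adjusted p = 0.0622 to 0.075). The call of Slc25a10 was lost in 9, including the omission of any 1 normal area (−0.39 to −0.36, adjusted p = 0.0532 to 0.0709), of tumor area R2 (−0.29, adjusted p = 0.0765) and of L4 and R5 together (−0.27, adjusted p = 0.0563). Rnf167 overlaps Slc25a11, and Gm11788 overlaps Slc25a10, on the other strand. The oxodicarboxylate carrier Slc25a21 did not pass (0.27 ± 0.17, adjusted p = 0.19) but did without tumor area L4 (0.40, adjusted p = 0.00812), where it was lowest, without L4 and R5 (0.50, adjusted p = 0.000452) and under library size scaling (0.55, adjusted p = 0.00848).

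In the TOM complex, the receptors Tomm20 and Tomm70a fell while Tomm22 rose. Tomm20 (ENSMUSG00000093904, chromosome 8), the receptor that recognizes presequences, had 166, 187, 222, 227 and 189 CPM in tumor areas, against 394, 414, 390.0 and 418 CPM in normal areas. The groups were far apart (−1.03 ± 0.09, edgeR adjusted p = 3.01e-06). Tomm70a (ENSMUSG00000022752, chromosome 16), the receptor that takes carrier precursors together with cytosolic chaperones, had 236, 239, 297, 266 and 272 CPM in tumor areas, against 399, 405, 382 and 401 CPM in normal areas. Again no tumor area reached the normal range (−0.60 ± 0.07, edgeR adjusted p = 2.42e-05). Tomm22 (ENSMUSG00000022427, chromosome 15), which ties the receptors to the pore, had 26.9, 29.0, 28.5, 26.9 and 31.7 CPM in tumor areas, against 16.2, 20.7, 22.4 and 18.8 CPM in normal areas. Every tumor area was above the normal areas (0.54 ± 0.11, edgeR adjusted p = 0.000934). Tomm20 has 4 processed pseudogenes of at least 95% identity with which reads could be shared, and Nit2 overlaps Tomm70a on the other strand. The pore itself, Tomm40, had 3 counts in tumor and 1 in normal areas, Tomm20l had 1 and 5, and Tomm34 was listed at 0.

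In the TIM23 complex, Timm17a fell and Timm21 and Timm50 rose. Timm17a (ENSMUSG00000062580, chromosome 1), part of the channel core, had 98.7, 116, 139.6, 132 and 116 CPM in tumor areas, against 192, 194, 177 and 195 CPM in normal areas. The tumor areas were all lower (−0.65 ± 0.09, edgeR adjusted p = 8.44e-05). A processed pseudogene, Gm7180, matches Timm17a at 96.3% identity over 516 bases, so reads could be divided between them. Timm50 (ENSMUSG00000003438, chromosome 7), the receptor that takes presequences over from TOM, had 34.4, 46.5, 42.7, 45.9 and 40.6 CPM in tumor areas, against 22.9, 24.8, 25.9 and 26.1 CPM in normal areas. It was the most raised of the 33 genes (0.75 ± 0.10, edgeR adjusted p = 6.85e-05), and L4 was its lowest tumor area. Timm21 (ENSMUSG00000024645), which links TIM23 to TOM and respiratory chain assembly, had 36.7, 34.9, 32.0, 35.3 and 38.7 CPM in tumor areas, against 26.0, 24.96, 25.4 and 23.1 CPM in normal areas. All tumor areas were above the normal areas (0.52 ± 0.08, edgeR adjusted p = 0.000191). Timm23, the channel, had 0 counts in tumor and 1 in normal areas, and Timm44, which anchors the import motor, was listed at 0.

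**Figure D3:**
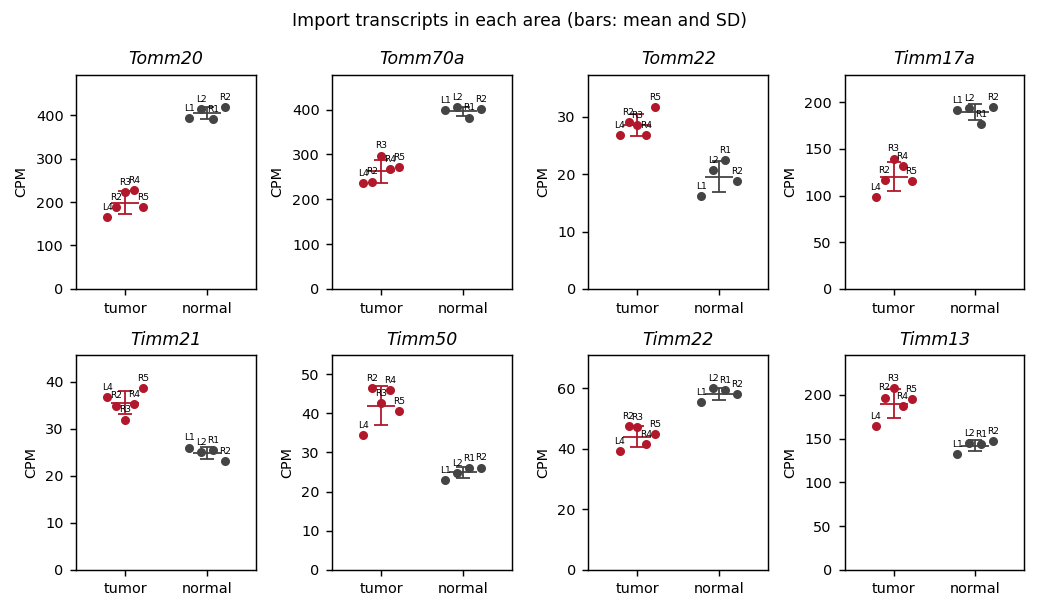
CPM of the 8 tested import transcripts in each area, with group mean and SD as bars; every axis starts at 0. Tomm20, Tomm70a, Timm17a and Timm22 are lower, and Tomm22, Timm21, Timm50 and Timm13 are higher, in every tumor area than in every normal area.

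On the carrier route, the TIM22 channel and a small TIM also went opposite ways. Timm22 (ENSMUSG00000020843, chromosome 11), the channel that inserts carriers into the inner membrane, had 39.3, 47.3, 47.0, 41.4 and 44.7 CPM in tumor areas, against 55.4, 60.0, 59.3 and 57.9 CPM in normal areas. The groups did not overlap (−0.41 ± 0.07, edgeR adjusted p = 0.000529), but library size scaling ended the call (−0.12, adjusted p = 0.178). Timm13 (ENSMUSG00000020219, chromosome 10), a chaperone of the intermembrane space, had 164, 197, 208, 187 and 195 CPM in tumor areas, against 132, 145, 144 and 147 CPM in normal areas. Each tumor area exceeded each normal area (0.42 ± 0.07, edgeR adjusted p = 0.000301). Tmprss9 overlaps Timm13 on the other strand, and Timm10b was listed at 0. Of the 8 import genes, the 4 that were higher were called in all 19 alternatives, and so were 3 of the 4 that were lower, Timm22 being the exception.

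Ratios of 2 transcripts within the same library do not depend on scaling. For 3 paralog pairs the log2 ratio of counts was compared between the groups by a 2-sided exact permutation test. Slc25a4 over Slc25a5 was 0.26 ± 0.09 in tumor and 0.10 ± 0.07 in normal areas (SD, n = 5 and n = 4), a difference of 0.16 in which tumor area R3 (0.186) and normal area R2 (0.180) nearly touched. Slc25a36 over Slc25a33 was 0.61 ± 0.70 in tumor and −0.44 ± 0.10 in normal areas, a difference of 1.05, with tumor area R2 at 1.74 and R5 at −0.02. Slc25a40 over Slc25a39 was 2.50 ± 0.24 in tumor and 1.86 ± 0.32 in normal areas, a difference of 0.64 in which tumor area R3 (2.144) and normal area R1 (2.135) also nearly touched. In each pair every tumor ratio was above every normal ratio, and the exact p was 0.0159, the smallest this design gives, also after adjustment over the 3 pairs. These pairs were chosen with earlier results of these data known. Slc25a36 over Slc25a33 places a gene called higher over one called lower, so its ratio and p are not independent of those calls. Ratios within the import complexes, and those of Slc25a1 and Slc25a11 over Slc25a10, were set up after the values were seen and have no test. Each places a gene called higher over one called lower, so its direction was set by that choice. Tomm22 over Tomm20 was −2.78 ± 0.22 in tumor and −4.37 ± 0.20 in normal areas, Timm50 over Timm17a was −1.52 ± 0.14 against −2.92 ± 0.12, and Timm13 over Timm22 was 2.11 ± 0.05 against 1.29 ± 0.04. Because genes differ in length, the size of a ratio does not rank the transcripts, and only its difference between the groups can be read.

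**Figure D4:**
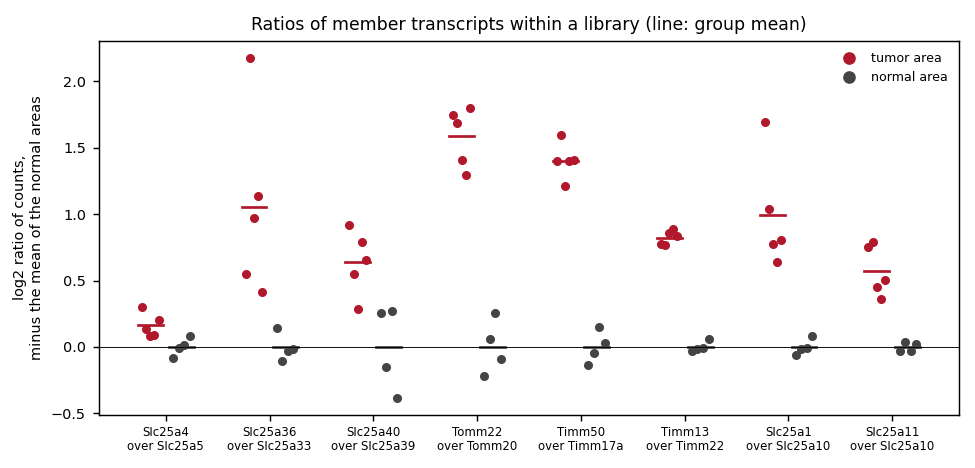
Log2 ratio of the counts of 2 genes in each library, minus the mean of the normal areas, for 8 pairs; red points are tumor areas, grey points are normal areas, and short lines are group means. Tumor points lie above the normal points in every pair, by 0.16 on average for Slc25a4 over Slc25a5 and by 1.59 for Tomm22 over Tomm20. The 3 paralog pairs were chosen with earlier results of these data known, and the other pairs were set up after the values were seen. The other pairs, and Slc25a36 over Slc25a33, place a gene called higher over one called lower, so their direction was set by that choice.

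Of the 17 genes below the filter, 9 had no count in any library: Slc25a14, Slc25a22, Slc25a37, Slc25a42, Slc25a45, Slc25a54, Timm10b, Timm44 and Tomm34. Another 6 had 1 to 10 counts in all 9 libraries together: Slc25a18, Slc25a25, Slc25a31, Timm23, Tomm20l and Tomm40. Slc25a43 overlapped between the groups, with 22 counts in tumor and 18 counts in normal areas, and Slc25a44 is given above. Several of these, such as Timm23, Timm44 and Tomm40, are used by every cell with mitochondria, so their values are given as listed in the table and not as absence of the transcript. In the table as a whole 28.4% of genes had no count. Timm23 has 6 matches of at least 95% identity over at least 200 bases in the annotation. Among them is the coding gene Gm10273 (99.9% over 1121 bases), while AC139240.1 matches at 95.2% over 291 bases. The 15 genes with at most 10 counts had a median of 6 annotated transcripts and the other 35 had a median of 4, with 2 coding transcripts in both. The annotation holds 24 further symbols of these families that have no row in the table, among them Slc25a13, Slc25a24, Slc25a28, Slc25a46, Timm9, Timm10, Timm17b and Tomm7, which were not analysed here.

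Tumor areas varied more among themselves than normal areas. The median coefficient of variation over the 33 tested genes was 14.6% in tumor and 4.57% in normal areas, against 14.5% and 6.69% over all genes tested, and it was larger in tumor areas for 31 of the 33. Tumor area L4 was the lowest of the 5 for 22 of the 33 (66.7%), beside 28.7% of all genes tested, and R4 was the highest for 14 (42.4%), beside 22.7%. The median deviation from the tumor mean, in log2 CPM, was −0.21 in L4, −0.04 in R2, 0.15 in R3, 0.14 in R4 and −0.02 in R5. The summed proximal tubule markers were 9885, 13006, 17282, 19102 and 15234 CPM in the same areas, which is the same order of areas apart from R3 and R4. Leukocyte markers summed to 1631, 1121, 772, 789 and 1224 CPM in these areas, highest in L4, where urothelial (1097 CPM) and fat markers (2113 CPM) also peaked. Markers of the thick limb and distal tubule and of the collecting duct were instead lowest in R2 (1499 and 37.1 CPM). The part of tubule content or of any other cell type in the spread of the 33 genes was not tested. With L4 and R5 left out, 9 of the same 33 genes were higher and 16 lower, with a median log2 fold change of −0.27, beside 38.9% and 36.4% of all genes tested in that setting.

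**Figure D5:**
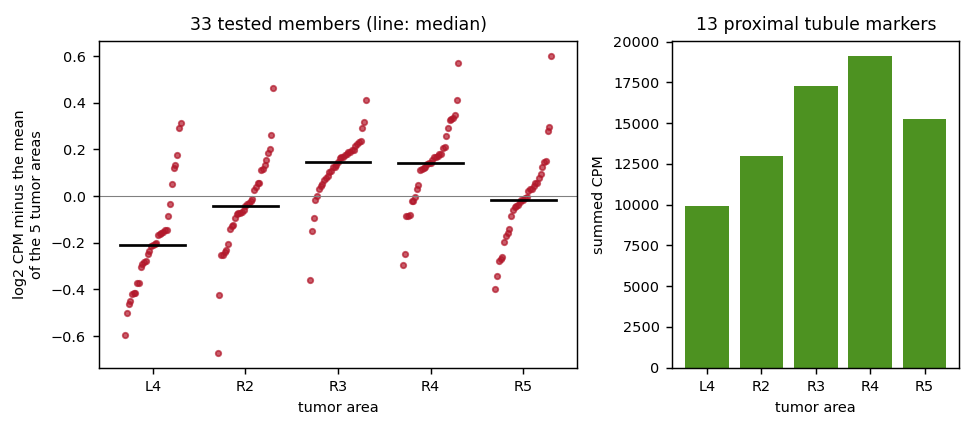
Left: log2 CPM of each of the 33 tested genes in each tumor area minus its mean over the 5 tumor areas, with the median as a line. Right: summed CPM of 13 proximal tubule markers in the same areas. L4 is lowest in both panels, with a median of −0.21 and a sum of 9885 CPM, and R3 and R4 are highest in both. Markers of other cell types, some of which order the areas differently, are not drawn.

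Other parts of the import and transport machinery moved in both directions, as did all genes tested (39.3% higher and 35.3% lower). Of 32 further import genes, 23 were in the table and 15 were tested. Of these, 4 were higher and 5 lower (26.7% and 33.3%), with a median log2 fold change of 0.07. Mtx3 (−1.37 ± 0.07, edgeR adjusted p = 1.05e-07), a metaxin of the outer membrane, Xpnpep3 (−1.10 ± 0.08, adjusted p = 1.21e-06), a peptidase that trims imported proteins, and Immt (−1.02 ± 0.12, adjusted p = 3.21e-05), the mitofilin of cristae junctions, were lowest. The matrix chaperonins Hspd1 (−0.59 ± 0.11) and Hspe1 (−0.33 ± 0.07) were also called lower, while Hspa9, the motor chaperone of import, did not pass (−0.10 ± 0.08, edgeR adjusted p = 0.317). Chchd3 (1.12 ± 0.18, adjusted p = 0.000268), a cristae junction protein, Samm50 (0.36 ± 0.08, adjusted p = 0.00217), which builds beta-barrel proteins into the outer membrane, and Dnajc15 (0.25 ± 0.08, adjusted p = 0.0179), a cochaperone of the motor, were higher.

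Of 24 mitochondrial solute carriers and channels outside the SLC25 family, 15 were tested. Of these, 5 were higher and 7 lower (33.3% and 46.7%), with a median log2 fold change of −0.04. Over all genes tested, 39.3% were higher and 35.3% lower. The most raised of the 15 was Tspo, the outer membrane translocator protein, with 319 ± 25.7 CPM in tumor and 115 ± 2.61 CPM in normal areas (SD, n = 5 and n = 4; 1.47 ± 0.07, edgeR adjusted p = 5.44e-08). The pores Vdac2 and Vdac3 and the calcium uniporter Mcu rose by 0.46, 0.40 and 0.46 on the log2 scale, whereas Vdac1 did not pass (−0.04 ± 0.10, adjusted p = 0.696). Mcur1, a regulator of the uniporter, fell by 1.53 on the log2 scale, and the sideroflexins Sfxn1, Sfxn2 and Sfxn5, of which Sfxn1 transports serine, by 0.79, 0.76 and 0.81. Of 13 regulators and mass markers, 8 were tested, 2 higher and 3 lower (25% and 37.5%, median 0.06). Ppargc1a, a coactivator of mitochondrial biogenesis, was at 146 ± 24.5 CPM in tumor and 251 ± 10.9 CPM in normal areas (−0.78 ± 0.11, edgeR adjusted p = 0.000109). The nuclear receptor Esrrg was at 1.29 ± 0.558 against 15.1 ± 2.51 CPM (−3.57 ± 0.26, edgeR adjusted p = 9.42e-07), Gabpa was lower (−0.35 ± 0.07, adjusted p = 0.00115) and Ppargc1b was higher (0.90 ± 0.19, adjusted p = 0.00171). Citrate synthase, Cs, a usual marker of mitochondrial mass, did not pass (−0.06 ± 0.06, adjusted p = 0.374). Of 9 mitochondrial proteases 5 were tested, and 20% of these were called in each direction. Lonp1 was higher (0.36 ± 0.11, edgeR adjusted p = 0.00976) and Yme1l1 lower (−0.20 ± 0.05, adjusted p = 0.00355).

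Set beside other gene families in the same comparison, the 157 tested solute carriers outside SLC25 had 45 genes higher and 74 lower (28.7% and 47.1%) with a median log2 fold change of −0.26. The 33 tested mitochondrial ribosomal proteins had 12 higher and 11 lower (36.4% and 33.3%) with a median of 0.00. The 18 tested complex I subunits had 5 higher and 3 lower (27.8% and 16.7%) with a median of 0.03. Over all genes tested, 39.3% were higher and 35.3% lower. The carriers, with 4 higher and 14 lower of 25, stood nearer to the other solute carriers in these counts. No test of these differences between families was made.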

How the data were processed

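RNA was measured by sequencing in 5 tumor areas and 4 normal areas of mouse kidney cortex. Per the labels' protocols, RNA was extracted with a column kit, DNase-treated, selected for poly(A) and made into unstranded TruSeq libraries read as paired ends. The deposited values are raw read counts per gene with no normalization, 1 column per library, made with STAR 2.3, HTSeq and edgeR on build mm9 per the submitters' processing notes, while annotation and strand setting were not given in the sources used here. Identifiers matched a symbol for 14026 of 14052 genes. No replicates were pooled, no 2 libraries agreed within sampling noise, and nothing says that areas of the same group came from separate animals.

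The genes, lists, tests and alternatives were chosen with earlier results of these data known. Counts were fitted with edgeR 4.0.16 in R 4.3.3: filterByExpr by group (minimum count 10, minimum total 15), TMM scaling (factors of 1.04 to 1.17 for tumor and 0.89 to 0.90 for normal libraries), a quasi-likelihood fit with the group as its only term, and Benjamini-Hochberg adjustment over 7020 genes, with a threshold of 0.05. The common biological coefficient of variation was 0.152. Standard errors are the absolute log2 fold change over the square root of F. The steps were also run on simulated counts in which few genes changed and both groups had the same spread. That run therefore does not test the scaling or the calls in these data, where most genes were called. Values in every area are given, per role and direction, for up to 3 called genes (largest absolute log2 fold change, higher group averaging 5 CPM or more) and for their paralogs. Other settings tried were scaling by library size, RLE or upper quartile, a filter of 1 CPM in 4 libraries or none, limma-voom (limma 3.58.1), DESeq2 1.42.0, the area letter as a covariate, R areas alone, each area left out, and no L4 and R5. Copies and overlaps come from GENCODE M21, by BLAST (at least 95% identity over at least 200 bases), and ratios used a pseudocount of 0.5. Tables and plots used Python 3.11.15, pandas 2.3.3, scipy 1.17.1 and matplotlib 3.10.9.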

Additional observations from a re-analysis of the deposited data

Results flagged for a closer look

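Of 66 groups of areas examined (33 genes in tumor and in normal areas), 3 held an area that stood apart from the others of its group, and chance gives about 1 in 20. Slc25a33 was at 9.73 CPM in tumor area R2, against 16.8 to 19.0 CPM in the other tumor areas. Slc25a35 was at 13.1 CPM in tumor area R5, against 6.72 to 8.56 CPM in the other tumor areas. Timm17a was at 177 CPM in normal area R1, against 192 to 195 CPM in the other normal areas.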

How the results depend on the processing

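Of the 26 called genes, 19 were called in the same direction under all 19 alternatives, 14 of them lower and 5 higher (Slc25a1, Timm13, Timm21, Timm50 and Tomm22). Over 33 genes and 19 alternatives there were 627 values, of which 570 kept direction and call, 35 lost the call, 9 gained it and 13 changed sign. The sign changes were all in genes that did not pass: Slc25a4 (−0.018 with RLE factors and with DESeq2, −0.033 with the area letter, and −0.025 to 0.053 with 1 area left out, below 0 without tumor R3 or R4 or normal L1, L2 or R1), Slc25a5 (0.13), Slc25a12 (0.20) and Slc25a26 (0.14) with library size alone, and Slc25a12 without L4 and R5 (0.060) and without L4 (0.016; from −0.14 to 0.016 when any area was omitted). Library size alone moved the median log2 fold change of all genes by 0.29 and the share of calls that were higher to 68.9%, from 52.7% with TMM; the causes of other lost or gained calls were not tested. The 4 carriers called higher became 7 with library size alone and 2 with the area letter, and 1 to 6 with 1 area left out (2 without tumor R4, normal L1, L2 or R2, 1 without normal R1, 6 without tumor L4). The 14 lower carriers ranged from 11 to 15, the 4 higher import genes stayed 4, and the 4 lower import genes were 3 with library size alone. No paired analysis was possible because tumor areas came from floxed animals with Ksp-Cre and normal areas from wild-type animals. The 1 area name that the groups share, R2, does not pair them. Depth limits the 17 genes below the filter, for which no fold change is given apart from Slc25a44.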
